A study of Ovis aries with 6 samples.

Results

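The shores of unmethylated regions (UMRs) are the strips of DNA just outside stretches of the genome where CpG sites carry almost no methylation. They were taken here in sheep perirenal fat, the fat depot around the kidney. The authors deposited 1 list of UMRs per stage, with 21446 autosomal UMRs in fetuses and 21199 in lambs, which merged into 22584 regions. Of these, 19772 held a UMR of each stage and were called shared. The 2 kb on each side of a shared UMR formed its shores, after every base lying in a UMR, a low-methylated region (LMR) or a DNA methylation valley (DMV, a long unmethylated domain) of either stage was removed. Of 39544 sides, 39526 kept at least 1 base and are the shores described here, and 18 had none left. All 2000 bases were kept on 29057 sides (73.5%). The shores cover 71.5 Mb and hold 1023010 of the 24936679 autosomal CpG positions (4.10%).

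DNA came from 3 fetuses at 132 days post conception, where term is 150 days, and from 3 lambs. The labels put the lambs at 89 days after birth and the series text at 80. All 6 animals were wild-type, untreated, pure-bred Merino sheep. The fetal tissue is labelled as brown fat, and the lamb tissue as white. The descriptions also carry a tag, TV on all fetal samples and VEH on all lamb samples; its meaning is not stated, and tag and stage cannot be told apart. No RNA is used here, so the labelled fat type was not checked against marker genes. In whole tissue, a change in the mixture of cell types and a change of methylation within a cell type cannot be told apart.

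Most UMRs of mammalian genomes are CpG-rich promoters, kept free of methylation by bound factors and by histone marks that repel the de novo methyltransferases. Beyond their edge, methylation climbs to the high level usual for the genome, and this transition zone is known as a place where tissues and developmental stages differ. LMRs are CpG-poor stretches of intermediate methylation, many of them distal regulatory elements. Whole-genome bisulfite sequencing reads methylation directly: bisulfite converts unmethylated cytosine, and the methylation level of a CpG is the share of its reads that were not converted. Regions are named by position on the build Oar_v3.1, since no annotation or sequence of that build was used.

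The 6 libraries held between 136938075 and 209550245 covering reads over all CpG positions, or 5.22 to 8.00 reads per autosomal CpG. A CpG was used where each animal had at least 5 reads, which kept 288539 shore CpGs (28.2%), with a median of 6 per shore. Lamb 1 had the most reads and lamb 2 the fewest. The level of a zone is the sum of methylated reads divided by the sum of covering reads, given per animal.

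Methylation rose steeply close to the edge and was flat from about 500 bases on. In the first 250 bases the level was 69.9% ± 0.421 (SD, n = 3) in fetuses and 70.3% ± 0.580 (SD, n = 3) in lambs. From 251 to 500 bases it was 77.9% ± 0.196 in fetuses and 78.2% ± 0.655 in lambs. Each of the 6 zones of 250 bases from 501 to 2000 bases then lay between 79.7% and 80.2% in fetuses and between 80.1% and 80.6% in lambs. The rule that drew the edges used the same reads, so the step at the edge itself is a description: 900 to 1000 bases inside the UMR the level was 5.77% in fetuses and 5.70% in lambs, against 65.8% and 66.0% in the first 100 bases outside. At the outer limit nothing changed abruptly. The last 100 bases of the shore stood at 79.9% in fetuses and 80.3% in lambs, and the next 100 bases beyond at 79.6% and 80.2%.

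**Figure D1:**
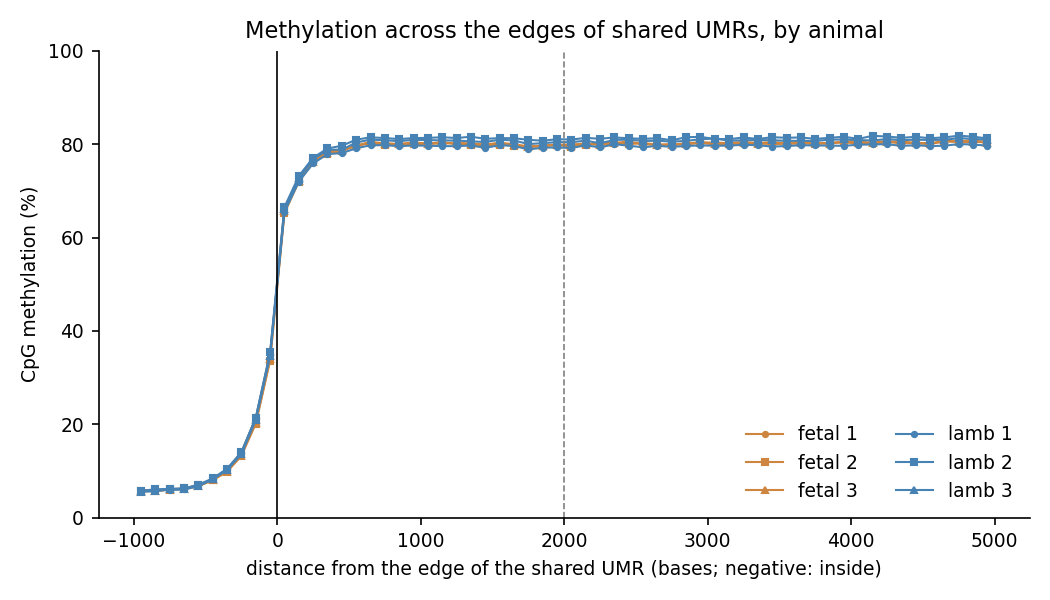
CpG methylation in percent against distance from the edge of shared UMRs in bins of 100 bases, negative distances lying inside the UMR, with 1 line per animal and a dashed line at the outer limit of the shore. All 6 animals climb from about 66% in the first 100 bases outside the edge to a plateau near 80%.

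The plateau depended on the removal of LMR bases. With these bases kept, the level at 1001 to 1100 bases was 76.4% in fetuses and 77.0% in lambs, against 80.1% and 80.6% without them. In the first 100 bases the choice moved the fetal level only from 65.8% to 65.5%.

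In bins of 50 bases, a division chosen after the profile had been seen, the climb was uneven. Averaged over the 6 animals, the level was 63.9% at 1 to 50 bases, 68.4% at 51 to 100 and 70.5% at 101 to 150. It was 74.5% at 151 to 200 and 76.6% at 201 to 250. The rise slowed to 2.08 points into the bin of 101 to 150 bases and was larger again, 4.02 points, into the bin of 151 to 200 (range over animals 3.92 to 4.11). Between 201 to 250 and 251 to 300 bases the level fell by 0.372 points on average, and the dip was present in each of the 6 animals. It then rose by 1.45 points into the bin of 301 to 350 bases. A second dip of similar size followed, with a change of -0.367 points from 351 to 400 to 401 to 450 bases. This too was present in each animal (range -0.529 to -0.152). The animals are read at the same CpGs, so a shared dip is not independent between them. With no read minimum, narrower bins ran from 78.1% to 79.0% at 351 to 400 bases and from 78.3% to 78.6% at 401 to 450. No clear fall was seen there. Around the first dip, such bins ran from 75.9% to 76.6% at 201 to 250 bases and from 76.0% to 76.4% at 251 to 300. The first dip was seen where the fetal and lamb edges lie on the same base, from 77.6% to 76.4%. Where the edges differ, the level went from 75.8% to 76.1%. The second dip, too, was seen where the edges lie on the same base, from 79.7% to 78.7%. Where the edges differ, the level there went from 78.6% to 78.8%. Where the edges differ, the climb was also more even, at 68.0%, 70.9% and 74.2% from 51 to 200 bases. It stood at 68.8%, 70.1% and 74.8% where the edges coincide. Each animal came to 90% of its own level in the flank 2 to 5 kb out within the bin of 151 to 200 bases, and to 95% within that of 201 to 250. All animals had come to 99% by 600 bases. The authors' UMR ends mostly sit between CpGs: 96.7% of 42644 ends lay within 1 base of the midpoint of neighbouring CpG positions. Whether this placement takes part in the uneven climb was not tested.

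**Figure D2:**
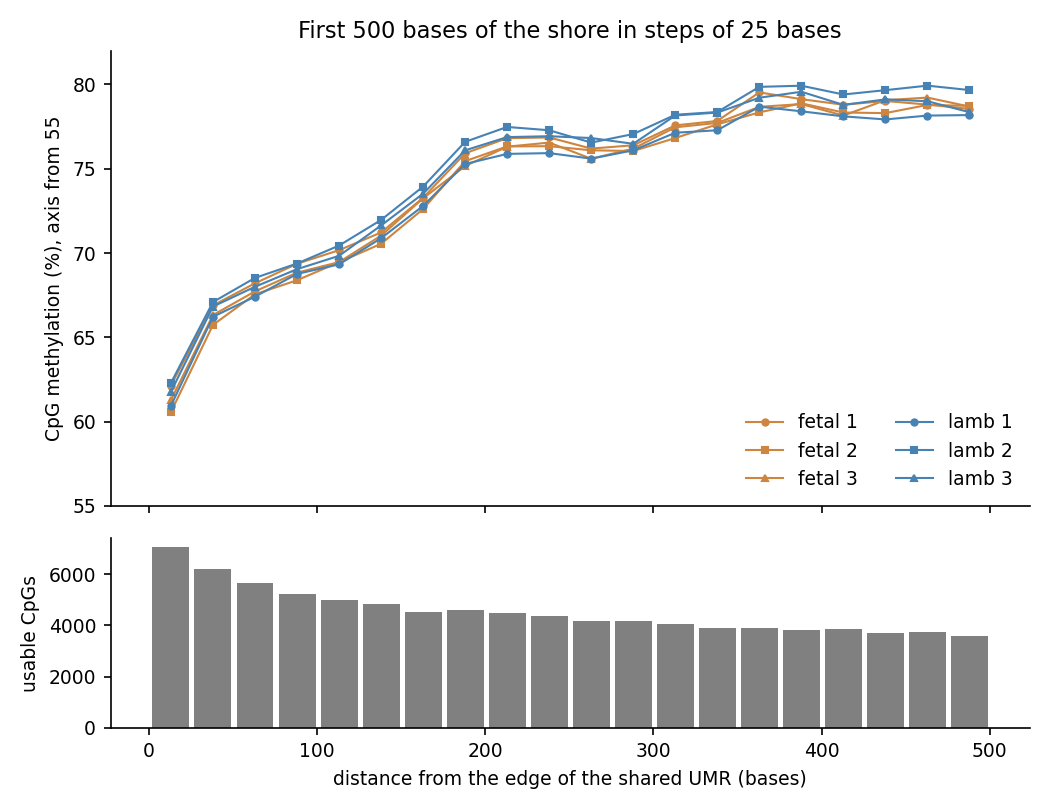
Top, CpG methylation in percent over the first 500 bases outside the edge in bins of 25 bases, with 1 line per animal and an axis that does not start at 0; bottom, the usable CpGs in each bin. The 6 lines run in parallel, with a slower rise near 100 bases and small dips beyond 250 and 400 bases.

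Averaged over their full width, shores were less methylated than the DNA around them. Within each animal, the shore lay below the flank 2 to 5 kb from the same edges, with a mean difference of -2.32 points ± 0.104 (SD, n = 6). The climb next to the edge carries this difference, since the zones from 501 bases on were near the flank level of 80.2% in fetuses and 80.6% in lambs. It therefore rests on edges called from the same reads and is given as a description, with no test. In the same way, the shore differed from the open autosome, the autosomal CpGs in no shore and no listed region, by -1.59 points ± 0.292 in 6 of 6 animals. That value depended on the read minimum: it was -0.818 points with at least 1 read per animal, -0.800 with no minimum and -4.08 with at least 10. Against the 2 kb flanks of shared DMVs, shores were higher by 4.82 points ± 0.386 in 6 of 6 animals. Shores and the 2 kb flanks of shared LMRs differed by 0.167 points ± 0.206, with the shore higher in 4 of 6 animals, and by 0.562 points with at least 1 read per animal.

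The level also followed the UMR that a shore adjoins. The median shared UMR was 1977 bases wide, with 1845 under 1 kb, 13460 from 1 to 3 kb and 4467 over 3 kb. Shores of the widest class stood at 75.1% ± 0.205 in fetuses and 75.6% ± 0.756 in lambs, against 78.2% ± 0.125 and 78.9% ± 0.773 for UMRs under 1 kb. Within animals the widest class was lower, by -3.19 points ± 0.206, in 6 of 6. UMR widths and DMVs come from lists called on these reads. The differences by width and by DMV overlap are therefore given as descriptions, with no test. All comparisons within animals were added after the data had been seen. The 504 shared UMRs overlapping a DMV had shores at 73.3% in fetuses and 73.9% in lambs. These shores differed from other shores by -4.59 points ± 0.240 in 6 of 6 animals. With at least 10 reads in each animal, where only 1865 shore CpGs were left, this last difference turned to 9.85 points higher, and shores stood at -4.89 points against DMV flanks. The difference by width kept its sign there, at -9.73 points.

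**Figure D3:**
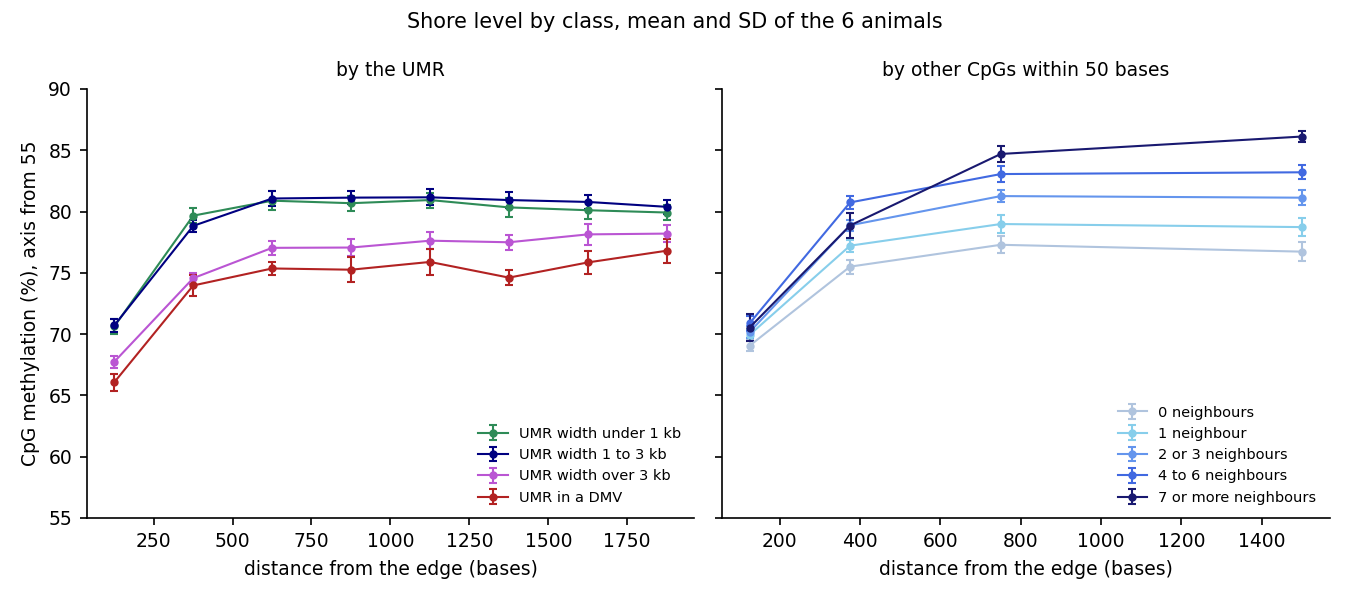
Shore methylation in percent (mean and SD of the 6 animals, axis not from 0) against distance from the edge, split on the left by UMR width and DMV overlap and on the right by the number of other CpGs within 50 bases. UMRs over 3 kb or in a DMV lie lowest, and CpGs with more neighbours separate upward beyond 1 kb, from 76.7% to 86.1%, while the classes lie between 69.0% and 70.9% in the first 250 bases.

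CpG density fell away from the edge, from 1.85 CpGs per 100 bases in the first 250 bases to 1.35 in the last 250. Shores in the densest quartile, over 1.8 CpGs per 100 bases, were more methylated than those in the sparsest. The difference was 1.87 points ± 0.339, in 6 of 6 animals. The animals are read at the same CpGs, so they are not independent here, and bases listed on these reads had been removed. The difference is therefore a description, with no test. At 251 to 500 bases the densest quartile was lower, at 77.7% against 78.3%. It was higher in the other zones, at 70.2% against 69.7% in the first 250 bases. Those bases hold 18797 of the 122620 usable CpGs of the densest quartile and 7020 of the 32824 of the sparsest. The part of distance in the 1.87 points was not tested. A relation with density was also seen between single CpGs far from the edge. At 1001 to 2000 bases, the mean level over animals rose from 76.7% for CpGs with no other CpG within 50 bases to 86.1% for those with 7 or more. That difference was 9.40 points ± 0.413, in 6 of 6 animals. Bases in listed regions, called on these reads, had been removed, so it is a description, with no test. In the open autosome, with the same bases removed, the level ran from 74.7% to 87.9%.

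Next to the edge this relation was much flatter. In the first 250 bases the level was 69.0% for CpGs with no neighbour, 70.2% with 2 or 3 and 70.5% with 7 or more. The difference between the extremes was 1.48 points ± 1.04, in 5 of 6 animals. It was 2.47 points with at least 1 read per animal and turned to -5.12 points with at least 10. The difference between the zones was 7.91 points ± 0.916, in 6 of 6 animals. The first 250 bases are set by edges called on these reads. The values there and the difference between the zones are therefore descriptions, with no test.

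Between stages, the shore level did not differ by more than the spread between animals. Fetuses 1 to 3 stood at 78.0%, 77.7% and 77.9%, and lambs 1 to 3 at 77.4%, 79.0% and 78.5%. The lambs span the fetuses: 2 lie above every fetus and lamb 1 below. The mean was 77.9% ± 0.152 in fetuses and 78.3% ± 0.796 in lambs, a difference of 0.420 points (exact permutation p 0.5, two-sided; the smallest p for 3 against 3 is 0.1). Without lamb 2 the difference was 0.0807 points, and without lamb 1 it was 0.854. Among lambs, the shallowest library had the highest level and the deepest the lowest. Among fetuses the order was the opposite. Fetus 1, the deepest at 7.45 reads per autosomal CpG, stood highest, and fetus 2, the shallowest at 5.38, lowest. The part of depth in these levels was not tested.

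The same small difference was seen elsewhere in the genome. It was 0.402 points in the flank 2 to 5 kb out, 0.423 in the open autosome and 0.463 in LMR flanks. Measured against the open autosome of the same animal, the shore stood at -1.59 points in each stage, and the stages differed by -0.00337 points (exact permutation p 1). Nor did distance from the edge separate the stages. The 8 zones of 250 bases differed by 0.295 to 0.599 points, with exact permutation p from 0.4 to 0.7 and adjusted p from 0.64 to 0.7. The rise from the first to the last 250 bases was 9.74 points ± 0.420 in fetuses and 9.87 ± 0.289 in lambs (exact permutation p 0.6).

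**Figure D4:**
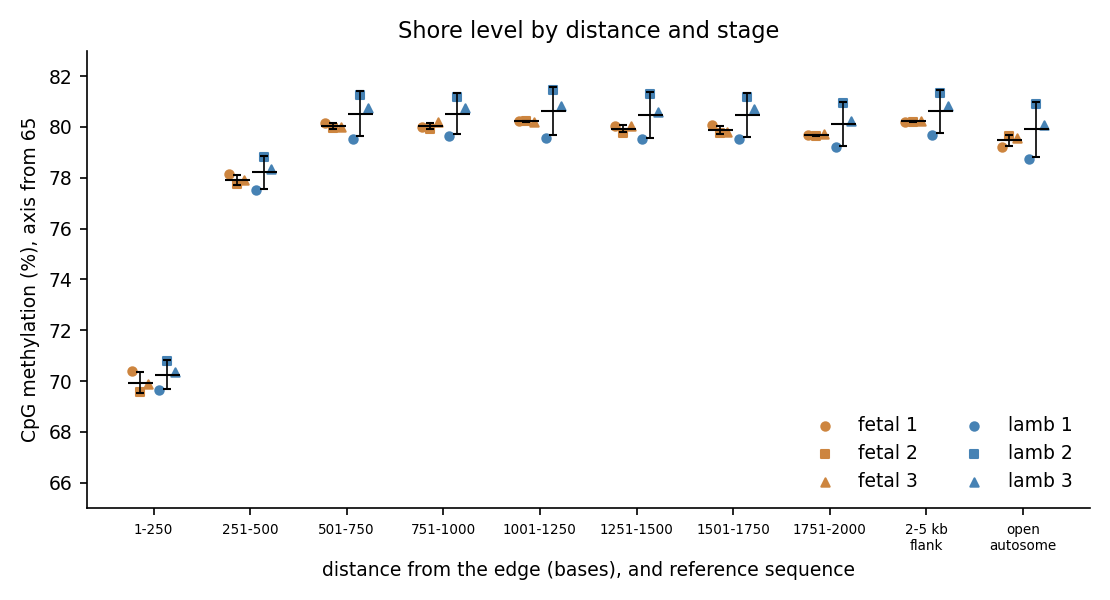
CpG methylation in percent by distance from the UMR edge in zones of 250 bases, with the flank 2 to 5 kb out and the open autosome, on an axis that does not start at 0; points are animals, black bars the mean and SD of each stage (n = 3). Lambs spread wider than fetuses in every zone, and their mean is higher by 0.295 to 0.599 points over the 8 zones.

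Stage comparisons within the classes gave exact permutation p from 0.4 to 0.9. The contrast between the densest and sparsest quartiles was 1.63 points ± 0.264 in fetuses and 2.11 ± 0.211 in lambs, with every lamb above every fetus. Its exact permutation p of 0.1 is the smallest the design allows, so it could not pass 0.05. With minimums of 1 read, 3 reads or none, and with equal weight per CpG, the exact permutation p was 0.2, so this separation did not hold there.

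The edges themselves often moved between the lists. Of the 39544 edges, 18694 (47.3%) lay on the same base in both stages, while the lamb UMR reached farther out at 9890 and the fetal UMR at 10960. The median gap was 104 bases where the lamb UMR was longer and 106 where the fetal one was. In the first 250 bases, shores of the former had a level of 71.1% in fetuses and 68.9% in lambs. Those of the latter had 68.8% and 71.5%. Since the edges were called on these reads, the opposite signs are a description. Where the edges coincided, the stages stood at 70.0% and 70.2%.

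Single shores were then compared, each with at least 3 usable CpGs, together with 2 kb windows of the rest of the autosomes. Of 31034 shores tested, 0 passed an adjusted p under 0.05 with a difference of at least 10 points (0%). Over all 647995 features, 14 passed (0.00216%). At an unadjusted p under 0.05, 1951 shores were counted (6.29%, against 5.94% of all features). Of these, 1039 were higher in lambs (3.35%, against 3.36%) and 912 lower (2.94%, against 2.58%). With edgeR, 0 shores and 1 of all features were called, and with limma 0 of both. Animals did not overlap between stages in 3246 shores (10.5%, against 10.3%), 1792 higher in lambs (5.77%, against 5.92%) and 1454 lower (4.69%, against 4.36%). These shares are near the background. A median shore had 7 usable CpGs, 64.2 reads per animal and an SD within stages of 5.17 points, so a difference of a few points at 1 shore was not detectable at this depth.

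**Figure D5:**
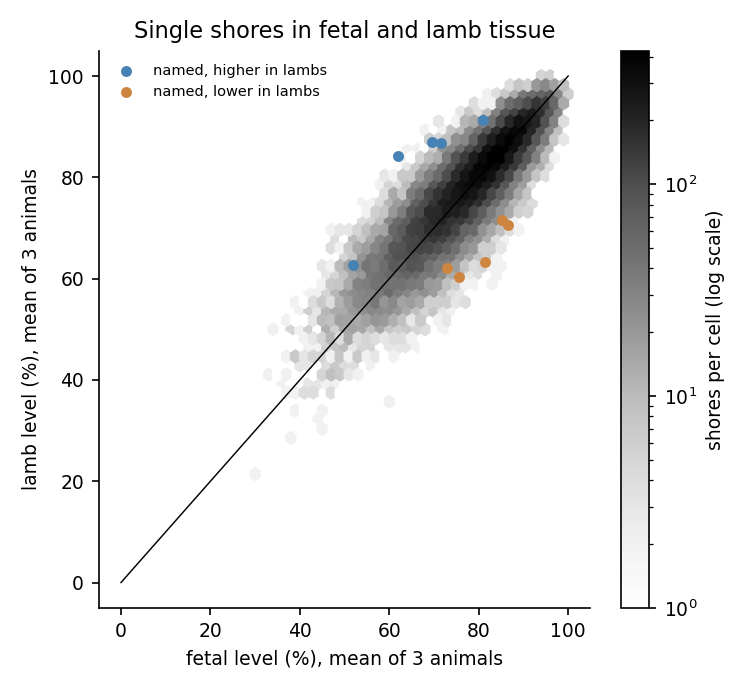
Lamb against fetal level in percent for the 31034 tested shores, each the mean of 3 animals; grey shade counts shores per cell on a log scale, the line marks equal levels and coloured points are the 10 named shores. Shores lie along the line, with a median difference of 0.404 points.

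The 5 shores per direction with the smallest unadjusted p are named here, and none passed the adjusted threshold. Only shores with at least 5 usable CpGs and no overlap between stages could be named, so their separation was set by this choice. The UMR edges of the named shores were called on these reads and differed between the stage lists at each of them. The shift is given as lamb minus fetal edge, positive where the lamb UMR reached farther out. The part of this shift in the named differences was not tested. The first shore adjoins the UMR at chr24:24774300-24775270, on its high-coordinate side, with a shift of -39 bases. Its level was 56.7%, 62.7% and 66.7% in fetuses 1 to 3 and 82.4%, 80.3% and 90.3% in lambs 1 to 3. The stage means differed by 22.3 points, with an adjusted p of 0.0791 in the moderated quasi-binomial test fitted across all features. This shore overlaps a region of the authors' hyper list, chr24:24775227-24775847, so it was already singled out from these reads. It was called with a minimum of 3 reads (23.7 points), as its inner 500 bases alone (37.6 points) and without lamb 2 (26.6 points).

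The other 4 higher in lambs differed by 10.4 to 17.6 points. They adjoin UMRs at chr1:97101623-97107249, chr5:106228911-106230130, chr12:2512544-2515065 and chr12:78261988-78263080. The last overlaps another region of the hyper list, chr12:78264902-78265008. These sizes were not stable. The shore at chr12:78261988-78263080 differed by 15.4 points as reported, by 5.74 with a minimum of 3 reads and by 8.40 without fetus 1. The shore at chr12:2512544-2515065 differed by 17.6 points as reported and by 6.54 with a minimum of 1 read. The shore at chr5:106228911-106230130 differed by 10.4 points as reported and by 5.55 without lamb 3, and was called with a minimum of 3 reads, at 12.1 points. The outer 1500 bases of the shore at chr12:78261988-78263080 were called when tested apart, at 22.7 points. The edge shift was -934 bases at chr12:2512544-2515065, -113 at chr5:106228911-106230130 and -90 at chr12:78261988-78263080. It went the other way at chr1:97101623-97107249, with 205 bases.

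Among the named shores lower in lambs, the smallest p belonged to the high-coordinate side of chr7:99938502-99940340. It stood at 78.7%, 84.5% and 81.1% in fetuses and at 54.9%, 64.2% and 70.5% in lambs, a difference of -18.3 points. Every lamb lay below every fetus. Its outer 1500 bases alone were called, with 91.8% ± 1.07 (SD, n = 3) in fetuses and 65.2% ± 5.95 in lambs. The other 4 adjoin chr2:15620702-15624702, chr1:4409135-4414582, chr4:66461417-66465025 and chr20:50400012-50403960, with differences from -15.8 to -10.9 points. The shore at chr1:4409135-4414582 was called with a minimum of 3 reads and without lamb 3. Shores outside this naming rule were called in some alternatives and are given because of that, after their values were seen. The high-coordinate side of chr2:65731330-65735438 was called with a minimum of 1 read (-28.8 points) and of 3 reads (-27.5 points). The high-coordinate side of chr15:24056275-24060225 was called without lamb 2 (-21.2 points). Among the shores lower in lambs, the edge shift was 1465 bases at chr4:66461417-66465025 and 175 at chr7:99938502-99940340. It was 125 at chr1:4409135-4414582 and 68 at chr20:50400012-50403960, and went the other way at chr2:15620702-15624702, with -32. The shift was 900 bases at chr2:65731330-65735438 and 41 at chr15:24056275-24060225.

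Shores varied widely among themselves. The mean level of a shore over the 6 animals had a median of 79.2%, with quartiles of 71.4% and 85.4%. Only 369 shores (1.19%) lay under 50%, and 14529 (46.8%) at 80% or more. Those under 50% adjoined a UMR over 3 kb in 33.1% of cases, against 20.4% of all tested, and were broken up by removed bases in 43.6%, against 25.6%. They had a median of 4 usable CpGs against 7, so their levels are less precise. Over the 31034 shores, Pearson's r was 0.696 to 0.737 between animals of 1 stage and 0.685 to 0.721 between stages, as a description.

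Some regions of the authors' lists of differentially methylated regions (DMRs) reached into shores. Of 526 regions in the hyper list, 147 (27.9%) held at least 1 shore base, and of 496 in the hypo list, 169 (34.1%) did. By bases, 12.8% of the hyper list and 19.1% of the hypo list lay in shores. Shores hold 4.10% of the autosomal CpG positions. A count of regions by 1 base and a share of CpG positions are unlike measures, and no test was run. Those 147 and 169 also held bases of the shared UMR itself in 81 and 95 cases, so many span the edge. In the hyper list, the fetal UMR reached farther at 89 of the 147 edges and the lamb UMR at 11. In the hypo list the lamb UMR reached farther at 116 of 169 and the fetal at 12. Both kinds of list were called on these reads, so these counts are not independent of each other.

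Named by most bases in shores, the leading hyper region was chr3:215516348-215517366. Counting all reads in its shore bases, it stood at 34.9%, 38.2% and 50% in fetuses and at 62.3%, 55.1% and 62.5% in lambs. The leading hypo region, chr3:45654082-45654695, stood at 85.4%, 88.2% and 82.6% in fetuses and at 60%, 60% and 38.1% in lambs. In both, the animals of the stages did not overlap. The others in the hyper list were chr1:6373686-6374471 and chr14:34106658-34107104, and those in the hypo list chr22:36101119-36101719 and chr20:7322243-7322825. At the chr1 region lamb 1 stood at 46.3%, below every fetus, while lambs 2 and 3 stood at 76.9% and 78.3%. These values come from the regions' own reads and are descriptions.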

How the data were processed

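Perirenal fat DNA of 3 fetuses and 3 lambs was bisulfite-sequenced with paired 100-base reads, each library on 1 lane, per the labels' protocols. Reads were mapped to Oar_v3.1, per the series design text. BWA, Picard, Oar_v3.1 and hg19 are named without roles, per the submitters' processing notes. The callers behind the methylation counts and the lists of regions are, in the sources used here, not given. Raw counts of methylated and covering reads at 26377052 CpG positions were deposited by the authors in 1 table. No header defines its columns, which were read as methylated and covering reads from their names and values. The region lists hold positions only.

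A CpG was used with at least 5 reads in each animal on autosomes 1 to 26. Levels were compared between stages by exact permutation tests over animals, two-sided. Comparisons within animals are given as descriptions. Shores with at least 3 usable CpGs were tested with 2 kb windows outside them by a quasi-binomial logistic test with moderated dispersion, Benjamini-Hochberg adjusted over all 647995 features and tested on simulated data. Alternatives were edgeR 4.0.16 and limma 3.58.1 (R 4.3.3), other read minimums, other shore definitions, and leaving out each animal; Python 3.11.15, numpy 2.4.6 and scipy 1.17.1 were used otherwise. Whether the read counts include PCR copies was not tested, and depth covers counting error at most.

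Named were called shores or, with fewer than 5 called in a direction, the 5 shores with at least 5 usable CpGs, no overlap between stages and the smallest unadjusted p, and the 3 DMRs per list with the most shore bases. The members and lists were chosen with earlier results of these data known. Planned gene lists were not used here, since no annotation of Oar_v3.1 was used.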

Additional observations from a re-analysis of the deposited data

How the results depend on the processing

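The shore level difference between stages stayed positive in the 17 alternatives run. Its exact permutation p cannot go below 0.1 with 3 against 3 or 3 against 2 animals, so none could pass. Without lamb 1 that p was 0.1. With at least 10 reads per animal, 1865 shore CpGs were left, and the stage difference turned to -0.243 points relative to the flank, 2.94 relative to the DMV flank, -0.466 at 251 to 500 bases, -0.164 for UMRs over 3 kb, -3.23 for UMRs in a DMV, -0.0102 for the density contrast and -4.10 for the DMV contrast. Within animals that minimum gave -4.89 against DMV flanks, 9.85 for DMV overlap, 1.81 against LMR flanks and -5.12 for neighbours in the first 250 bases. Comparisons that kept their sign there moved to -9.26 against the flank, -4.08 against the open autosome, -9.73 and -8.54 for width, 6.64 for density and 14.8 for the difference between zones.

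The stage difference relative to the open autosome, near 0, was 0.0916 with a minimum of 1 read, 0.0323 with 3, 0.0925 with none and 0.148 with LMR bases kept; relative to LMR flanks it was 0.0222 with 1 read and 0.0191 with none. Within animals, shores against LMR flanks gave 0.562, 0.279 and 0.572 points with minimums of 1, 3 and none, and neighbours in the first 250 bases gave 2.47, 2.20 and 2.52, and 2.16 with equal weight per CpG. The cause was not tested. Called shores numbered 1 of 39038 with a minimum of 1 read, 4 of 38129 with 3, and 3 of 38554 with inner and outer bases apart, where 17, 24 and 17 of all features were called. Requiring 50% of a DMR in shores left 96 hyper regions.

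Leaving out 1 animal at a time, the stage difference ranged from -0.177 to 0.207 relative to the open autosome, -0.0701 to 0.112 to the flank, -0.182 to 0.115 to LMR flanks and -0.414 to 0.269 to DMV flanks. It ranged from -0.255 to 0.589 in density quartile 1 and -0.0438 to 0.874 in quartile 2. Called shores ranged from 0 to 2 and autosomes with the higher lamb mean from 16 to 26. In the comparisons within animals, directions held: -2.36 to -2.21 for the flank, -1.63 to -1.36 for the open autosome and 4.49 to 4.89 for DMV flanks. Values were -3.16 to -2.82 and -3.46 to -3.12 for width, -4.62 to -4.32 for DMV overlap and 1.75 to 1.99 for density. They were 9.10 to 9.54 for neighbours at 1001 to 2000 bases and 7.00 to 8.07 for the difference between zones.

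Replicate numbers are shared by the stages. In deviations from stage means over shores, same-numbered animals correlated at 0.0154, 0.0121 and 0.00416. Pairs of other numbers correlated from -0.0228 to 0.0103. Single shores hold few reads, so these values cannot tell whether the numbers pair the animals. A replicate block gave 0 called shores, as without it, and took the calls over all features from 14 to 0.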

Other observations

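The shores on either side of 1 UMR were nearly unrelated in level. Over 12677 UMRs with both shores tested, Pearson's r between the sides was 0.0842, as a description across UMRs, and the median gap was 8.87 points. With at least 10 usable CpGs on each side (2316 UMRs), r was 0.120 and the median gap 7.04 points. Both shores lay under 50% at 5 UMRs and 1 shore alone at 281.

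The lamb mean of the shores was higher on 25 of 26 autosomes, and on 16 without lamb 2. Lamb 2 was the highest of the 6 animals on 25 autosomes, and lamb 1 the lowest lamb on 26. Stages did not overlap on chromosome 9 alone, where lambs were 0.950 points higher (exact permutation p 0.1, adjusted 0.827). Over all animals the shore level ran from 76.7% on chromosome 1 to 80.0% on chromosome 8.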
